A study of Homo sapiens and Mus musculus with 20 samples.

Results

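MHC class I molecules carry peptides from inside the cell to its surface, where CD8 T cells and natural killer cells read them. The genes described here were 9 genes of that pathway chosen by symbol: the heavy chains HLA-B, HLA-C, HLA-E and HLA-F, the light chain B2M, the peptide transporter subunits TAP1 and TAP2, the loading chaperone TAPBP and the transactivator NLRC5. Of these 9 genes, 5 were analysed among 17554 gene symbols of the IMR90 libraries: HLA-B, HLA-E, B2M, TAP2 and NLRC5. TAP2 was analysed in the A485 and MS-275 experiments only, so the pyruvate experiment held 4. HLA-C, HLA-F, TAP1 and TAPBP were not analysed here.

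Peptides are cut by the proteasome, pumped into the endoplasmic reticulum by the TAP1 and TAP2 transporter and trimmed there by aminopeptidases. They are then fitted into the groove of a heavy chain paired with beta-2 microglobulin, the product of B2M. Transcription of the heavy chains and of B2M depends on short promoter elements read by NLRC5 with RFX, CREB and NF-Y factors, and on interferon and NF-kB responsive elements. In fibroblasts the pathway is active at a basal level and is raised by interferon.

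Bulk RNA sequencing measured messenger RNA in 12 libraries of wild-type IMR90 cells, which are human fetal lung fibroblasts, in 6 groups of 2. The treatments were A485, which inhibits the acetyltransferase p300 (with untreated Control2), MS-275, an inhibitor of histone deacetylases (with untreated Control3), and pyruvate (with untreated Control6). According to the study's text, pyruvate was given to senescent IMR90 cells, and the comparisons belong to a study of histone lactylation in senescence. Doses and times are not in the labels, and all groups come from 1 cell line, with no statement that replicates were separate cultures, so p-values measure only the spread between these libraries. The 8 muscle libraries of the series were not used here.

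Values are normalised read counts, in which the reads of a gene are scaled by a size factor of the library, and each experiment was normalised on its own. Reads over the genes with values numbered 24179065 to 46971227 per library. Those genes numbered 16683 for A485, 16417 for MS-275 and 12013 for pyruvate, so the reads are not full library depths. A gene was called when limma gave an adjusted p under 0.05 (Benjamini-Hochberg over all genes tested) and an absolute log2 fold change above 1, computed on log2(value + 1). On this scale the change of a gene with few reads appears too small. All 8 fibroblast markers were analysed, and their summed value was 428267 to 1511442 in the 12 libraries. In the A485 experiment that sum was 428267 to 502039 in treated and 1357445 to 1511442 in control libraries, and the part of this shift in the results below was not tested. Of 7 leukocyte markers, 2 were analysed in the A485 experiment (sum 22.5 to 46.3), 1 in the MS-275 experiment (0 to 18.2) and 0 in the pyruvate experiment. Of 4 endothelial markers 1 or 2 were analysed, with sums of 0 to 203, and of 4 epithelial markers 1 to 3, with sums of 755 to 2026. The pan-leukocyte marker PTPRC and the T cell marker CD3E were not analysed here. In bulk samples, fewer cells of a type and less RNA per cell cannot be told apart.

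The promoters of HLA-B and B2M, the members with the highest levels, are shown because the elements named above can be read in them. They are 250 bases before the transcription start in RefSeq (GRCh38.p14), where 7 of the 9 genes matched an entry, and HLA-E and NLRC5 did not. HLA-B is at chr6:31357180-31357429 on the minus strand, and B2M is at chr15:44711267-44711516 on the plus strand. Capitals mark 4 motifs searched on both strands: GGGATTCC, an NF-kB-like site, AANTGAAA, an interferon-response-like site, TGACG, the CRE core, and CCAAT.
HLA-B: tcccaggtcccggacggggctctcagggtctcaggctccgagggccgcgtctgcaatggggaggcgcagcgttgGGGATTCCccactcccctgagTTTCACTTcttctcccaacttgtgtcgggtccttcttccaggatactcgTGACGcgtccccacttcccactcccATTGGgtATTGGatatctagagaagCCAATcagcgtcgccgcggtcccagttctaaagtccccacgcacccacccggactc
B2M: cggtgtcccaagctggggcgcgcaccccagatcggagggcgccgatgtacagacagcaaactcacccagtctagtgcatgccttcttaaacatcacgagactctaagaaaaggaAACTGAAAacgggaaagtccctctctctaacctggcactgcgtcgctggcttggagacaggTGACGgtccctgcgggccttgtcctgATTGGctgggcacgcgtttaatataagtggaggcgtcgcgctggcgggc

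In HLA-B the NF-kB-like letters began 176 bases before the start, the interferon-response-like letters 155, the CRE core 106, and CCAAT letters 81, 74 and 56 bases before it. In B2M the interferon-response-like letters began 136 bases before the start, the CRE core 75 and CCAAT 49. The exact letters GGGATTCC were not in this B2M window, and other forms of an NF-kB site were not searched. GGGATTCC was also in none of the promoters of HLA-C, HLA-F, TAP1, TAP2 and TAPBP. Of these, AANTGAAA was in HLA-C and TAPBP, TGACG in HLA-C and TAP2, and CCAAT in HLA-C, HLA-F and TAP1. Over the same 250 bases of 35116 RefSeq promoters, 0.948% held GGGATTCC, 5.53% AANTGAAA, 21.2% TGACG and 32.0% CCAAT. The motifs do not overlap one another here, and a match is a string of letters, not a shown binding site.

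Of the 9 genes, 7 lie in the MHC on chromosome 6, and 3 of those 7 were analysed. In hg38 with GENCODE release 44, HLA-B spans 6:31353872 to 31367067 (minus strand), HLA-E 6:30489509 to 30494194 (plus strand) and TAP2 6:32821833 to 32838739 (minus strand). B2M spans 15:44711358 to 44718851 and NLRC5 16:56989485 to 57083531, both on the plus strand. HLA-B overlaps 4 annotated genes, TAP2 overlaps 1 and NLRC5 overlaps 2. The strand setting and annotation of the counting are not given in the sources used here, so reads of overlapping genes cannot be told apart.

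Genes of the MHC were sparse and low in these values. Whether this affected the levels of HLA-B, HLA-E and TAP2 below was not tested. In an interval of 5 Mb on chromosome 6 that spans the MHC, 28 of 183 protein-coding genes (15.3%) were analysed, with a median of 31.9 for the gene means, and HLA-B was the only one above 1000. In the 5 Mb before this interval 64 of 108 genes (59.3%) were analysed with a median of 165, and in the 5 Mb after it 45 of 64 (70.3%) with a median of 1236. RPS18, a ribosomal protein gene inside the interval, had a mean of 23.4, below all 76 other ribosomal protein genes, whose median was 17978 and whose lowest mean was 37.4. RPS10, outside the interval and with no window in the alternate sequences described next, was also low, at 40.4.

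The hg38 assembly also holds 261 alternate sequences, extra copies of regions such as the MHC that vary between people. Of the 75-base windows along the exons of each gene, the share found letter for letter in an alternate sequence was 60.4% for HLA-B, 100% for HLA-E, 98.4% for TAP2, 89.2% for B2M and 0% for NLRC5. For the members not analysed it was 86.0% for HLA-C, 92.7% for HLA-F and 100% for TAP1 and TAPBP. The windows of HLA-B with no such copy lay mostly in exons 2 and 3, which encode the peptide groove (164 of 196 and 157 of 202), and in exon 4 (74 of 202). Those of B2M lay in exon 4, its last exon (75 of 465).

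Over all protein-coding genes, 154 of 666 genes (23.1%) with more than 90% of windows in alternate sequences were analysed, with a median of 63.0. Of 17747 genes with no such window, 12122 (68.3%) were analysed, with a median of 814. The gap was also present outside the MHC, where 128 of 495 genes (25.9%) with more than 90% were analysed, with a median of 80.9. How reads that fit a chromosome and an alternate sequence equally well were handled is not given in the sources used here, and its part in the levels of the members was not tested. NLRC5 is the only member with no window in an alternate sequence.

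**Figure D1:**
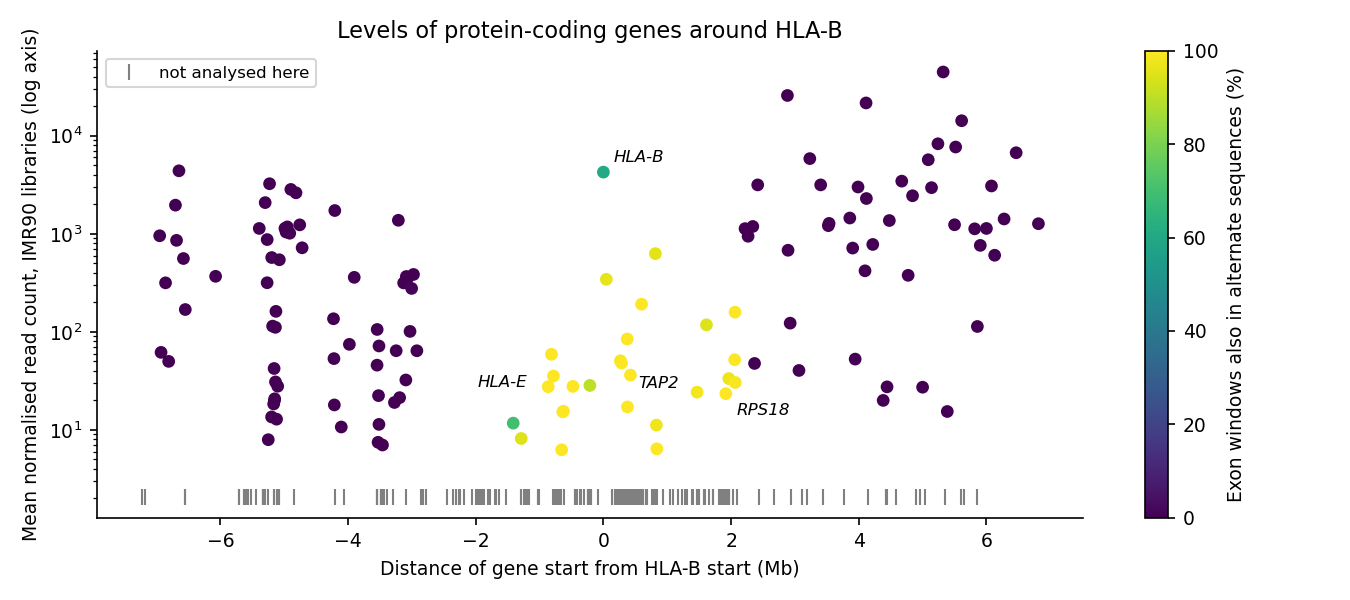
Mean normalised read count of protein-coding genes (log axis) against distance from the start of HLA-B, coloured by the percent of exon windows also found in alternate sequences of hg38, with ticks for genes not analysed here. Genes within the MHC are mostly yellow and low, HLA-B is the only one of them above 1000, and genes on both sides reach higher levels.

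To compare the genes with one another, values were taken per kilobase of transcript and per 1000000 of a library's summed values. That sum covers only the genes with values, not the full library. On this scale B2M led with a median level of 262 over 12 libraries (54.6 to 600.5), followed by HLA-B at 74.3 (32.0 to 158). NLRC5 followed at 2.23 (1.42 to 3.19). HLA-E was at 0.250 (0.0649 to 0.941) and TAP2, in 8 libraries, at 0.0667 (0.0335 to 0.288). B2M and HLA-B overlapped in their ranges, as did HLA-E and TAP2, whereas NLRC5 lay apart from all of them. B2M exceeded HLA-B in every group mean except Control6, where B2M was 58.3 ± 5.10 (SD, n = 2) and HLA-B 90.04 ± 6.67 (SD, n = 2). The shares of exon windows in alternate sequences were 89.2% for B2M, 60.4% for HLA-B, 100% for HLA-E, 98.4% for TAP2 and 0% for NLRC5. The part of these shares in the order of the genes was not tested. Transcript GC was 39.1% for B2M and 58.9% for HLA-B, and its part in the Control6 order was not tested.

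**Figure D2:**
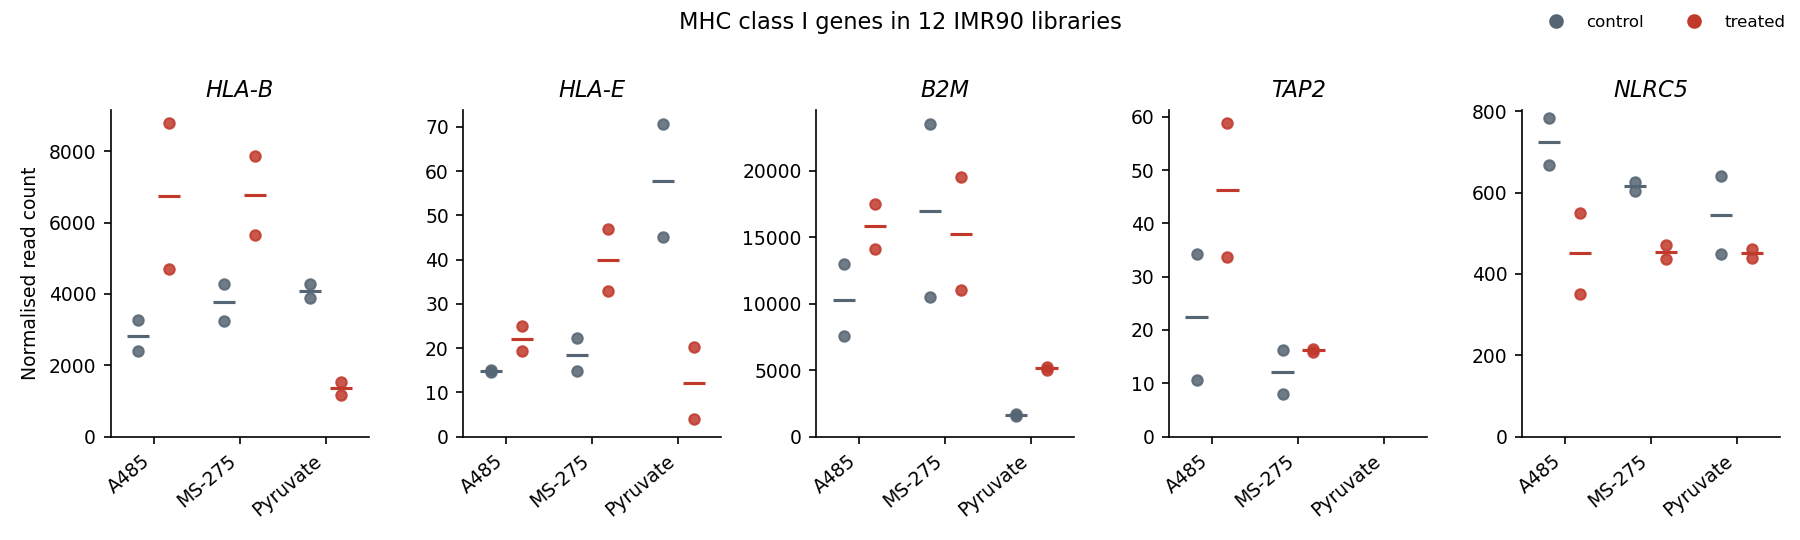
Normalised read counts of the 5 analysed members in each library, with grey points for control, red points for treated libraries and bars for group means (n = 2); each panel has its own axis from 0, and TAP2 has no pyruvate values. HLA-B is higher in both treated libraries of A485 and MS-275 and lower in both pyruvate libraries, while B2M is higher with pyruvate.

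The A485 comparison asks how the messenger RNA of IMR90 cells differs under inhibition of p300. HLA-B, a classical heavy chain, had higher values with A485, B2M and the non-classical heavy chain HLA-E were also above their controls in both libraries, and NLRC5 was below, but none of the 5 members was called. By limma 532 genes (3.31%) were called higher and 1135 (7.06%) lower of 16084 tested, and 4949 had an unadjusted p under 0.05, among them HLA-B and NLRC5. The groups did not overlap for 4 of the 5 members, and for 61.0% of all genes tested.

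HLA-B measured 4694 and 8784 in A485 libraries and 2396 and 3257 in Control2 libraries. Both treated libraries lay above both controls, and the treated libraries differed more from each other than the controls did. The log2 fold change was 1.20 (SE 0.33, 95% interval 0.40 to 2.00, adjusted p = 0.0647 by limma), and it was 0.75 without A485 replicate 2 and 1.65 without A485 replicate 1. With equal library totals it was 1.59 (adjusted p = 0.0106), and with quantile normalization 1.39 (adjusted p = 0.0333), both past the threshold. Equal totals moved the median of all genes from 0.01 to 0.40. Relative to the median of each setting, HLA-B stood at 1.20 with equal totals and at 1.19 in the deposited scaling. On recovered reads DESeq2 called HLA-B (1.25, adjusted p = 0.00358), whereas edgeR did not (1.28, adjusted p = 0.0529).

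HLA-E, which presents signal peptides to natural killer cells, measured 19.4 and 24.9 against 14.98 and 14.7. The groups did not overlap, but at these low values the log2 fold change of 0.54 (SE 0.58) had an interval of -0.88 to 1.96. B2M measured 14096 and 17539.6 with A485 and 7546 and 13011 in control. The lower treated library exceeded the higher control library by a small margin, and the log2 fold change was 0.67 (SE 0.29, adjusted p = 0.186 by limma). It was 0.27 without Control2 replicate 1 and 1.06 without Control2 replicate 2. With equal library totals B2M was also at 1.06 (adjusted p = 0.0234) and past the threshold, but relative to the median of all genes it stood at 0.66 in both scalings. With quantile normalization it was at 1.10 (adjusted p = 0.0311), or 0.98 relative to the median.

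TAP2, a subunit of the peptide transporter, measured 33.7 and 58.8 with A485 and 10.7 and 34.3 in control. The groups overlapped, and the log2 fold change was 1.17 (SE 0.72, adjusted p = 0.329 by limma), with 0.37 and 1.96 without Control2 replicates 1 and 2. NLRC5, the transactivator of class I genes, measured 351 and 550.5 with A485 and 782 and 668 in control. Both treated libraries lay below both controls, opposite in direction to HLA-B and B2M, and the log2 fold change was -0.72 (SE 0.29, adjusted p = 0.159 by limma), with -0.39 and -1.04 without A485 replicates 1 and 2. The median log2 fold change of the 5 members was 0.67, and that of all genes tested was 0.01.

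**Figure D3:**
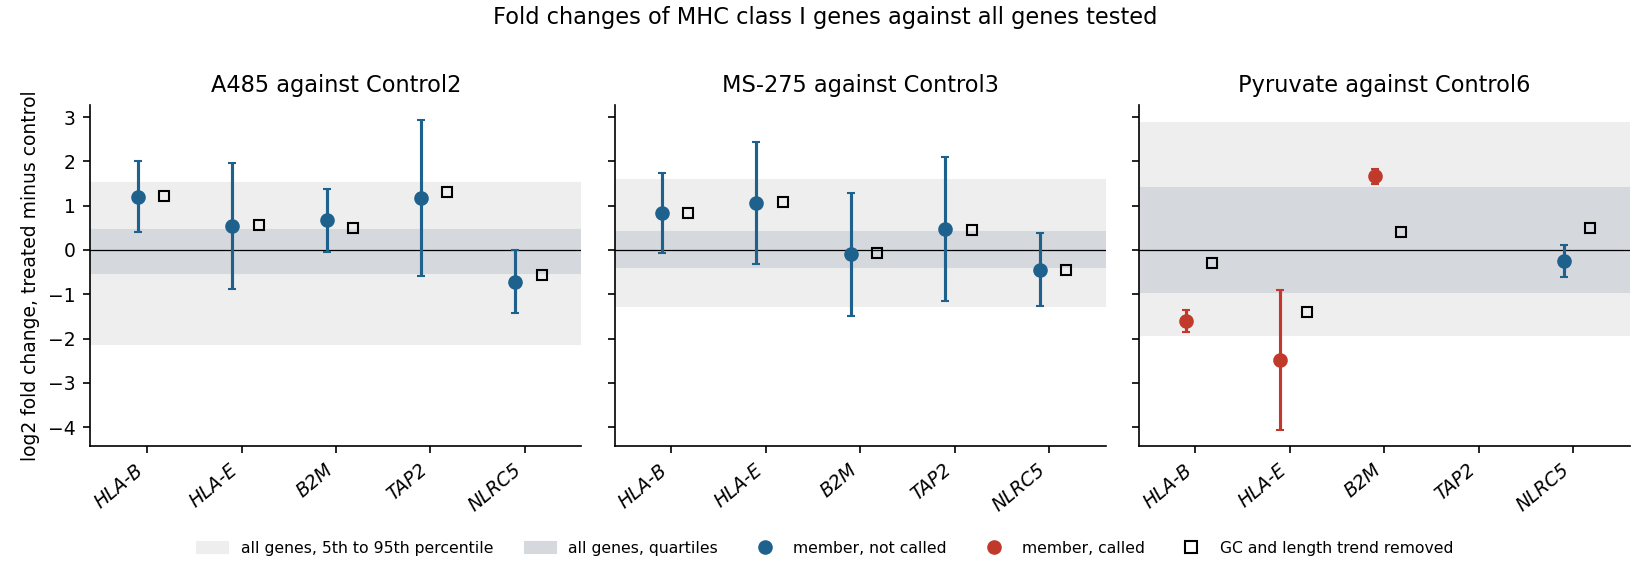
Log2 fold changes (treated minus control) of the members in the 3 comparisons, with 95% limma intervals, red where called, and open squares for the value after the GC and length trend of each library was removed; grey bands give the quartiles and the 5th to 95th percentiles of all genes tested. In the pyruvate panel the squares of HLA-B, HLA-E and B2M lie nearer to 0 than the points.

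The MS-275 comparison asks the same of inhibition of histone deacetylases. HLA-B and HLA-E were above their controls and NLRC5 below, each in both libraries, and none of the 5 members was called. By limma no gene at all was called (0.0% of 15883 tested), 1730 genes had an unadjusted p under 0.05, and 0 of the 5 members were among those. No count tool was run on this experiment. A fit with the replicate number as a block, which the labels do not say pairs the libraries, called 1230 genes higher and 953 lower and again 0 members. In that fit HLA-B and NLRC5 passed the adjusted p (8.43e-06 and 0.0364 by limma) but not the fold required. The groups did not overlap for 3 of the 5 members, and for 38.9% of all genes tested.

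HLA-B measured 5664 and 7863 in MS-275 libraries and 3255 and 4282 in Control3 libraries, with no overlap. Within each replicate number the log2 difference was close to the other, 0.80 for number 1 and 0.88 for number 2. The log2 fold change was 0.84 (SE 0.35, interval -0.06 to 1.74, adjusted p = 0.501 by limma). HLA-E measured 32.9 and 46.8 with MS-275 and 14.9 and 22.2 in control, again without overlap. Its log2 differences were 1.10 for number 1 and 1.04 for number 2, and the fit gave 1.07 (SE 0.53, adjusted p = 0.595 by limma).

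B2M, which was not tested against the heavy chains, had overlapping groups. It measured 11053 and 19518 with MS-275 and 10495 and 23507 in control, so that both groups spanned the same range. The log2 differences were 0.07 for number 1 and -0.27 for number 2, and the fit gave -0.10 (SE 0.54, interval -1.49 to 1.30). TAP2 measured 16.5 and 15.9 with MS-275 and 7.92 and 16.2 in control, and its log2 differences were 0.97 and -0.02. NLRC5 measured 436 and 471 with MS-275 and 627 and 604 in control, below in both libraries. Its log2 differences were -0.52 and -0.36, and the fit gave -0.44 (SE 0.32, adjusted p = 0.739 by limma). The median over the 5 members was 0.47, and over all genes -0.01.

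The pyruvate comparison asks how IMR90 cells given pyruvate differ from untreated ones. HLA-B and HLA-E fell and B2M rose, so that the heavy chains and the light chain moved in opposite directions, and NLRC5 was not called. All 3 calls were lost when the trend of the values on GC content and length was removed, as given below. Of the 4 members tested, 1 was called higher, where 31.0% of all 12013 genes were, and 2 lower, where 23.1% were. By limma 9827 of the 12013 genes had an unadjusted p under 0.05, among them 3 of the 4 members. Groups did not overlap for 3 of the 4 members and for 90.5% of all genes.

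HLA-B measured 1168 and 1542 with pyruvate and 3882 and 4283 in Control6 libraries. Each treated library lay far below each control, a 3.04-fold lower level (log2 fold change -1.60, SE 0.12, adjusted p = 1.58e-07 by limma). HLA-E measured 3.93 and 20.3 with pyruvate and 45.2 and 70.5 in control. The treated libraries differed widely at these low values, and the log2 fold change was -2.49 (SE 0.72, interval -4.07 to -0.90, adjusted p = 0.00757 by limma). HLA-E remained called without any 1 library, at -1.43 without pyruvate replicate 1 and -3.54 without pyruvate replicate 2. B2M measured 5242 and 5021 with pyruvate and 1526 and 1717 in control, a 3.17-fold higher level with little spread (log2 fold change 1.66, SE 0.08, adjusted p = 5.06e-09 by limma).

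NLRC5 measured 462 and 439 with pyruvate and 640.4 and 449 in control, so that the groups overlapped. Its log2 fold change was -0.25 (SE 0.17, interval -0.62 to 0.11, adjusted p = 0.181 by limma). The median over the 4 members was -0.93, and over all genes -0.01, with B2M on the other side of 0.

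The fold changes of the pyruvate comparison followed the base composition of the genes. Across 11871 genes, which are not independent replicates, the log2 fold change and the GC content of the transcript had a Spearman's rho of -0.72, against -0.11 for A485 and -0.02 for MS-275. The transcripts of HLA-B and HLA-E had 58.9% and 55.1% GC, that of NLRC5 58.0% and that of B2M 39.1%. When a smooth trend on GC content and length was removed from each library, none of the 4 members was called. HLA-B was then at -0.29 (adjusted p = 0.0723), HLA-E at -1.40 (adjusted p = 0.145) and B2M at 0.40 (adjusted p = 5.88e-05, limma). NLRC5 turned to 0.50 (adjusted p = 0.0456 by limma). The median of all genes was 0.20 in this setting, and relative to it HLA-B stood at -0.49, HLA-E at -1.60, B2M at 0.20 and NLRC5 at 0.30. The origin of the trend was not tested.

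The effects of the treatments were then set against each other, as the difference of 2 log2 fold changes over the 8 libraries of both experiments. A485 and MS-275 did not differ past the threshold for any of the 5 members, where 3.81% of 15130 genes were called, 2659 genes had an unadjusted p under 0.05, and none of them was a member. The interval for HLA-B was -0.86 to 1.59 and that for B2M -0.81 to 2.34, and both intervals hold differences above the fold required.

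Against pyruvate, the effect of A485 was higher for HLA-B by 2.80 (SE 0.41, adjusted p = 0.000439 by limma) and for HLA-E by 3.02 (SE 1.004, adjusted p = 0.0270 by limma). These 2 of 4 members were called higher, where 20.5% of all genes were. For MS-275 against pyruvate the same members were called, HLA-B at 2.44 (SE 0.35, adjusted p = 0.00282 by limma) and HLA-E at 3.56 (SE 1.01, adjusted p = 0.0301 by limma), where 15.9% of all genes were. B2M went the other way, by -0.997 for A485 (adjusted p = 0.0273, just short of the fold required) and by -1.76 for MS-275 (adjusted p = 0.0513 by limma). Both pairs share the pyruvate and Control6 libraries. The study's text says that pyruvate was given to senescent cells, and does not say so of the A485 and MS-275 cells. Treatment, cell state and experiment therefore cannot be told apart in these differences. The median of all genes was -0.30 for A485 minus pyruvate and -0.11 for MS-275 minus pyruvate, and relative to these B2M stood at -0.70 and -1.65.

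With the GC and length trend removed, HLA-B was still called in both pairs, at 1.51 (adjusted p = 0.0161) and 1.17 (adjusted p = 0.0102, limma). HLA-E was not (1.96, adjusted p = 0.144, and 2.47, adjusted p = 0.0919), B2M in the A485 pair turned to 0.07 and NLRC5 was called at -1.08 (adjusted p = 0.0244, limma). The median of all genes for that pair was then -0.33, and relative to it B2M stood at 0.40 and NLRC5 at -0.76, under the fold required. The call of HLA-E was also lost in A485 minus pyruvate without A485 replicate 2, Control2 replicate 2, pyruvate replicate 1 or either Control6 library (adjusted p 0.0503 to 0.0984, limma). In MS-275 minus pyruvate it was lost without MS-275 replicate 2, Control3 replicate 1, pyruvate replicate 1 or either Control6 library (adjusted p 0.0551 to 0.103, limma).

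Other genes of the pathway were taken from 7 lists of 56 genes. In the A485 comparison 1 of 44 tested genes was called higher (2.27%) and 0 lower, where 3.31% and 7.06% of all genes were, and with MS-275 0 of 45 were called. The called gene was MR1, a class I-like molecule that presents vitamin B metabolites to T cells. It measured 1645 and 2293 with A485 and 659 and 949.8 in control (log2 fold change 1.29, SE 0.27, adjusted p = 0.0327 by limma). MR1 was not called when any 1 of the 4 libraries was left out (adjusted p 0.0722 to 0.203, limma). With MS-275 it measured 1293 and 1533 against 635 and 874 (0.92, adjusted p = 0.450 by limma), and with pyruvate 332 and 454 against 1492 and 1531 (-1.96, adjusted p = 1.56e-07 by limma). MR1 had the same signs as HLA-B in the 3 comparisons, but HLA-B was called with pyruvate only and MR1 was not called with MS-275. The pyruvate value of MR1 is given without removal of the GC and length trend described above. None of its exon windows was found in an alternate sequence, and the part of such sequences in the HLA-B values was not tested.

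In the pyruvate comparison 12 of 41 tested pathway genes were called higher (29.3%) and 11 lower (26.8%), close to the shares over all genes. Among the 6 with the smallest p, CANX, the chaperone calnexin that holds new heavy chains, rose from 9193 and 9011 to 38280 and 37987 (log2 fold change 2.07). BCAP31, an endoplasmic reticulum protein that escorts class I molecules, fell from 11641 and 12432 to 3209 and 3208 (-1.91). JAK1 (1.88) and IFNAR1 (1.97), a kinase and a receptor chain of interferon signalling, rose, whereas PSMB5 (-1.67), a catalytic subunit of the constitutive proteasome, and FCGRT (-1.60), a class I-like heavy chain that binds IgG, fell. With the GC and length trend removed JAK1 alone of these 6 was called, at 1.47.

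The counts by list stand against 31.0% of all genes higher and 23.1% lower. The 12 pathway genes called higher had 35.2% to 46.4% GC and the 11 called lower 42.6% to 61.7%, and the part of base composition in the counts was not tested list by list. The 6 class I-like genes tested with pyruvate had 5 lower and 1 higher, and the median was -1.78. The 3 immunoproteasome genes tested had 2 lower (PSMB10 and PSME2) and 0 higher, with a median of -1.09. The 3 constitutive proteasome genes had 1 lower (PSMB5) and 0 higher, with a median of -0.98. The 7 loading and trimming genes had 3 higher, CANX and the aminopeptidases ERAP1 and ERAP2, and 1 lower. Of 15 transcription factors 5 were higher, RFXAP, NFYA, NFYB, CREB1 and ATF1, and 2 lower, IRF1 and RELA. Of 6 genes for interferon receptor chains and their kinases 3 were higher, the receptor chain IFNAR1 and the kinases JAK1 and JAK2, and 0 lower, and the single class II gene tested, CIITA, was not called.

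**Figure D4:**
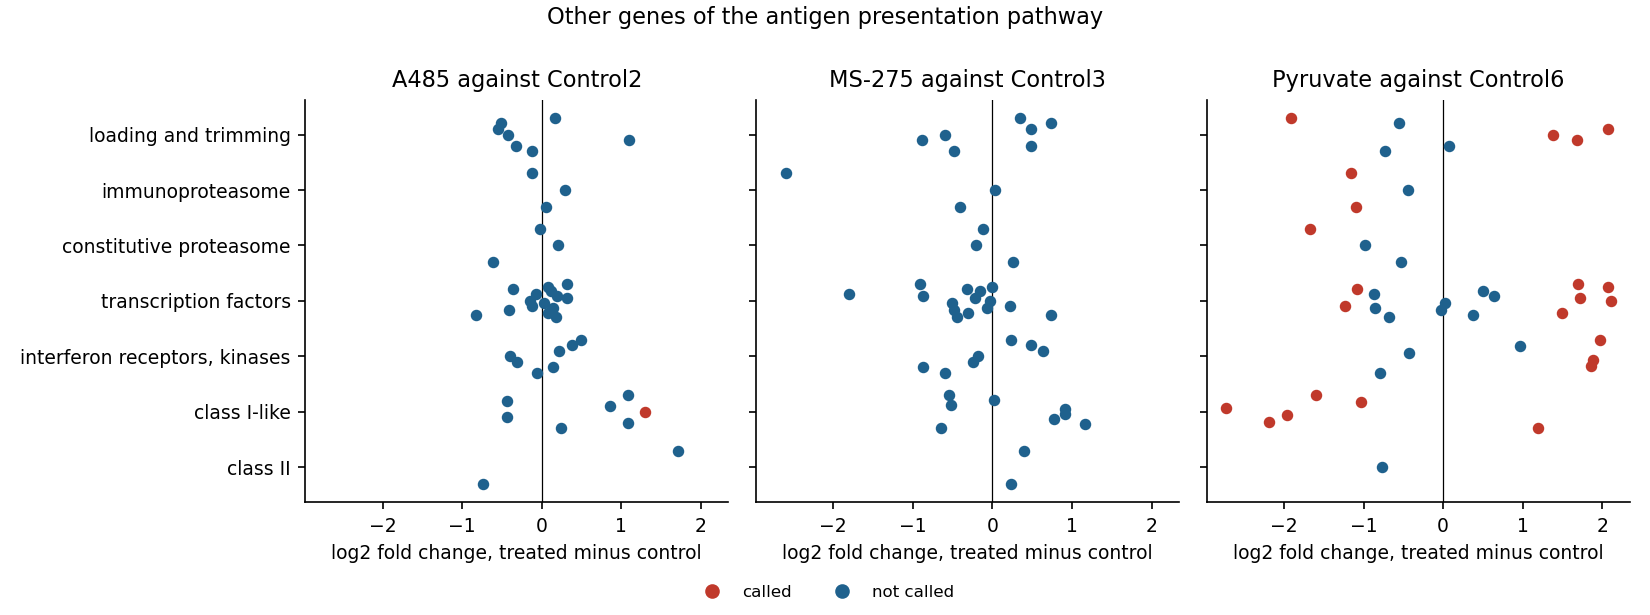
Log2 fold changes (treated minus control) of the tested genes of 7 lists of the antigen presentation pathway in the 3 comparisons, on a shared axis, with red points for called genes. A single point is red in the A485 panel, none in the MS-275 panel and 23 in the pyruvate panel, on both sides of 0.

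Over the 12 libraries, as log2 values relative to the control mean of the same experiment, HLA-B and HLA-E had a Pearson r of 0.90, HLA-B and B2M of -0.44, HLA-E and B2M of -0.63, and HLA-B and NLRC5 of -0.35. Without the pyruvate experiment, whose fold changes followed GC content, HLA-B and B2M had an r of 0.64 over 8 libraries and HLA-E and B2M of 0.31, so the negative values of these pairs rested on that experiment. HLA-B and HLA-E then had 0.77, and HLA-B and NLRC5 -0.60. These libraries share cell line, experiment and controls, and the values are a description. The genes most like the mean profile of the 4 members tested in all comparisons, of 11985 ranked, were ENSG00000289056 (r = 0.97), AGBL5 (0.94), OSER1-DT (0.94), CYS1 (0.94) and ENSG00000268912 (0.94). That mean averages members that moved in opposite directions with pyruvate, so it is not a pattern that all 4 share.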

How the data were processed

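Messenger RNA libraries of IMR90 cells were analysed (12 of 20 samples, grouped by title). Per the submitters' notes the authors used Trim Galore 0.6.10, HISAT2 2.2.1 (hg38), SAMtools 1.7, featureCounts 2.0.6 and DESeq2 1.34.0. The deposited values are a signal, read counts divided by 1 size factor per library, normalized by the authors within each experiment. Genes below the authors' limit, and the 8 muscle libraries, were not analysed here.

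Every value was a whole multiple of 1 read (tolerance 0.001 reads), which gave the reads over the genes with values. Replicates differed by more than sampling noise. The chi-square per gene was 4.54 for pyruvate and 13.8 for Control6 libraries, and 82.6 to 456 for the other groups. Genes averaging 10 or more in the 4 libraries were fitted on log2(value + 1) with limma 3.58.1 (R 4.3.3, eBayes with trend, no covariate). The fit was tested on simulated counts with the same spread for all genes of an experiment and no deviation shared between libraries. Libraries of A485 and MS-275 did deviate together by replicate number, so the test does not cover that feature. Differences between effects were limma contrasts over 8 libraries. edgeR 4.0.16 and DESeq2 1.42.0 were run on recovered reads of the A485 experiment only. GC content and length were known for 98.1% of symbols (GENCODE release 44). The members and lists were chosen with earlier results of these data known. All members were described, and of pathway genes the called ones, at most 6 by smallest p, were given with values. The 5 most similar genes were ranked by Pearson r. PSMB10, PSME2, ERAP1, ERAP2 and other list genes named without values, and the motifs, were chosen after the data were seen. Alternatives were other pseudocounts (0.1, 10), filters (none, 50), scalings, trend, replicate block, fold minimum (0.58), 1 fit over 12 libraries, GC and length, count tools and leaving out each library. Leaving out libraries and removing the GC and length trend for differences between effects were added after seeing the data.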

Additional observations from a re-analysis of the deposited data

How the results depend on the processing

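In the A485 comparison the count of members called higher, 0 as reported, was 2 with equal library totals, 2 with quantile normalization, 1 in 1 fit over 12 libraries and 1 with DESeq2, and it was 0 to 0 without any 1 library. In 1 fit over 12 libraries HLA-B had an adjusted p of 0.0356 by limma. Over all genes, calls higher went from 532 to 1670 with equal totals, 258 without intensity trend, 339 in the fit over 12 libraries and 2 to 196 without 1 library (3 and 2 without A485 replicates 1 and 2, 196 and 106 without Control2 replicates 1 and 2), and calls lower from 1135 to 582 without intensity trend and 114 to 648 without 1 library. For MS-275 the fit over 12 libraries called 220 genes higher and 267 lower, and leaving out 1 library 0 to 292 higher and 0 to 149 lower (292 and 270 higher without Control3 replicates 1 and 2), but 0 members in each. B2M turned sign there, with a range of -0.68 to 0.48 without 1 library.

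For pyruvate the removal of the GC and length trend left 2427 genes higher and 1132 lower, and 0 members in either direction. NLRC5 then turned to 0.50, and it was also at 0.058 with equal totals, which moved the median of all genes by 0.30 and called 1741 genes lower, and between -0.51 and 0.0033 without 1 library. A mean of at least 50 left 1 member lower, since HLA-E fell below it. Without 1 library, 3639 to 3762 genes were higher and 2716 to 2763 lower.

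The libraries that share a replicate number deviated together with r = 0.32 for A485, 0.73 for MS-275 and 0.00 for pyruvate across genes, and 2 pairs per experiment do not establish a pairing. With the replicate block, 1 member was higher with A485 (HLA-B, adjusted p = 0.00316) and 870 genes were. For MS-275 the block gave 1230 genes higher, 953 lower and 0 members, with HLA-B at 0.84 (adjusted p = 8.43e-06), short of the fold required, and NLRC5 at -0.44 (adjusted p = 0.0364, limma). B2M in MS-275 minus pyruvate was then called at -1.76 (1 member lower). The block changed no other count of members.

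For differences between effects, the trend removal left 1 member higher in each pair with pyruvate and 1 lower in A485 minus pyruvate, where B2M turned to 0.072. Without 1 library, 1 to 2 members were higher and 0 to 1 lower in both pairs. In A485 minus MS-275, values ranged from -0.089 to 0.81 for HLA-B, -0.60 to 0.048 for NLRC5 and -0.11 to 1.49 for TAP2, and in MS-275 minus pyruvate NLRC5 from -0.44 to 0.066. A left-out library leaves a group of 1, which is assumed to vary like the others. HLA-E and TAP2 had low values (3.93 to 70.5), at which few reads limit the precision. For MS-275 and pyruvate no count tool was run.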
